A study of Homo sapiens with 8 samples.

Results

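The genes described here encode the proteins of the cytosolic ribosome. They were taken by gene name, as every RPL or RPS name with a number and at most 1 closing letter A, L or X, together with RPLP0, RPLP1, RPLP2 and RPSA. The rule found 83 of 55765 gene names, and 80 of them averaged at least 1 TPM (a share of all transcripts, scaled for transcript length). The levels came from 8 RNA-seq libraries of human acute myeloid leukaemia cell lines. NB4, a promyelocytic leukaemia line with the PML-RARA fusion, gave 1 library each after 6, 12 and 24 h with 40 uM chlorprothixene and 1 untreated library, and Kasumi-1, a line with the RUNX1-RUNX1T1 fusion, gave the same 4. Chlorprothixene is a thioxanthene antipsychotic that blocks dopamine receptors. Each condition was 1 library, no vehicle is named in the labels, and the time at which the untreated cells were taken is not given in the sources used here.

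Each ribosome holds 1 copy of nearly every one of these proteins, so cells keep their output closely balanced, and proteins made in excess are degraded. The mRNAs belong to the 5′ terminal oligopyrimidine (TOP) class, which starts with a C followed by an unbroken run of C and U. The mTOR kinase and the binding protein LARP1 set the translation of such mRNAs, which can therefore alter with little alteration in mRNA level. When ribosome assembly is disturbed, the free proteins RPL5 and RPL11 bind MDM2 with the 5S rRNA and block it.

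The start sites below belong to genes that the results turn on, and they show which of these genes hold the TOP run at the annotated start and which do not. Each is the 30-base RefSeq window (GRCh38.p14, gene strand, 5′ to 3′) with 20 bases before the annotated start and 10 from it. Capitals mark a run that begins with C at the start and holds only C and T for at least 4 further bases. RPS6, RPL18, RPS28, RPL37A and RPL21 are those with the largest excess in NB4. RPS18, RPL28 and RPL29 are treatment examples, and RPL15 is an example with no such run. RPS27 stands beside RPS27L, a paralogue expressed at a low level. RPL39 is shown alone, because no window was matched for its paralogue RPL39L.
RPS6 (chr9:19380227-19380256, minus strand): gcgctaagcggaagttggccCTCTTTTCCg
RPL18 (chr19:48619169-48619198, minus strand): cgcccaccccagcccgttctCTCTTTCCgg
RPS28 (chr19:8321476-8321505, plus strand): ggctctccccgaagcacgtgactcctctcc
RPL37A (chr2:216498824-216498853, plus strand): cctgcgcaccgcgtctcttcCTTTCTgggc
RPL21 (chr13:27251538-27251567, plus strand): cgccgcggccccgcctctttCCTTTCggcc
RPS18 (chr6:33272055-33272084, plus strand): gatatcgcgtcacttccgctCTCTCTTCCa
RPL28 (chr19:55385912-55385941, plus strand): tcgcctcgcccctcgccttcCTCTTTCCgt
RPL29 (chr3:51995886-51995915, minus strand): tgctgcaccgcagcccctttCTCTTCCggt
RPL15 (chr3:23916525-23916554, plus strand): ccctgggcgctggggcctgctggaggagct
RPS27 (chr1:153990742-153990771, plus strand): gcaggatttccgctttcgctCCTTTCCggc
RPS27L (chr15:63157468-63157497, minus strand): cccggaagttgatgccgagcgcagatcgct
RPL39 (chrX:119791621-119791650, minus strand): gctcgttcttccgccagcttCCCTCCTCTT

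A start window was found for 64 of the 83 genes. The run stood exactly at the annotated start in 42 of the 64 (65.6%), against 1104 of the 27305 promoters in the table (4.04%). In RPS28 the window holds C and T just after the annotated first base, which is no C, and in RPL15 and RPS27L no run was found at the start. RPS27L, the paralogue of RPS27, thus differed from it in these letters. In the whole windows from 250 bases before the start to 50 after it, searched on both strands, CCGGAAG, the core of ETS-family sites, was present in 22 of 64 (34.4%) against 10.7% of all promoters. AAGATGGC, the core bound by YY1, was present in 6 (9.38%) against 3.03%. The E-box CACGTG that MYC can bind was present in 3 (4.69%) against 7.43%, the GC box GGGCGG in 36 (56.2%) against 44.6%, and TATAAA in 6 (9.38%) against 12%. These are letter matches in reference sequence, and no motif was tested for a link to the levels.

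The number of reads is not given, and the commonest ratio of deposited coverage to FPKM, shared by 12.2% to 14.1% of genes in a library, lay between 7.08 and 9.83. No pair of libraries was identical. The myeloid granule gene MPO had 4889, 3140, 2104 and 1528 TPM in untreated, 6 h, 12 h and 24 h NB4 cells. Kasumi-1 had 9908, 11406, 9128 and 9340 TPM of it. PRTN3, another granule gene, had 1002, 703, 228 and 140 TPM in NB4, beside 5971, 5050, 2539 and 1771 TPM in Kasumi-1. The granule gene ELANE was at most 0.759 TPM in NB4, while Kasumi-1 had 416 to 1495 TPM. CD33, PTPRC, SPI1 and CEBPA lay between 10.7 and 327 TPM in every library. KIT was at most 0.311 TPM in NB4, while Kasumi-1 had 72.5 to 450 TPM, and RUNX1T1 likewise was found almost solely in Kasumi-1. Of the other cell types looked for, the 3 erythroid markers were listed at 0 throughout. The 3 epithelial markers summed to 15.7 to 20.6 TPM in NB4, beside 17.5 to 29.8 TPM in Kasumi-1, nearly all of it EPCAM, with KRT19 listed at 0. The lymphoid marker CD79A had 3.65 to 7.03 TPM in NB4, beside 3.12 to 4.19 TPM in Kasumi-1. Their part in the results was not tested.

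The ribosomal protein mRNAs made up between 12.6% and 15.7% of all transcripts, and the largest excursion was in treated Kasumi-1 cells. In NB4 the summed share was 13.5% in untreated cells, 13.2% at 6 h, 13.5% at 12 h and 14.6% at 24 h. In Kasumi-1 it was 12.6% untreated, 14.6% at 6 h, 15.7% at 12 h and 13.0% at 24 h. The share thus stood highest at 24 h in NB4 and at 12 h in Kasumi-1. Bulk values of this kind cannot tell fewer cells of a type from less RNA per cell, and a share of transcripts says nothing of the total RNA in a cell.

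The mitochondrially encoded RNAs, of all genes listed on the mitochondrial chromosome and not mRNAs alone, share the total with them. These RNAs took 6.71%, 5.04%, 6.41% and 5.62% of transcripts in untreated, 6 h, 12 h and 24 h NB4 cells. In Kasumi-1 they took 8.73%, 7.94%, 10.6% and 17.1%. With these left out of the total, the ribosomal share in Kasumi-1 became 13.8%, 15.9%, 17.5% and 15.7%. At 24 h it then stood nearer to its 6 h value than to its untreated value. In NB4 the same step gave 14.5%, 13.9%, 14.5% and 15.5%, in the same order as before.

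**Figure D1:**
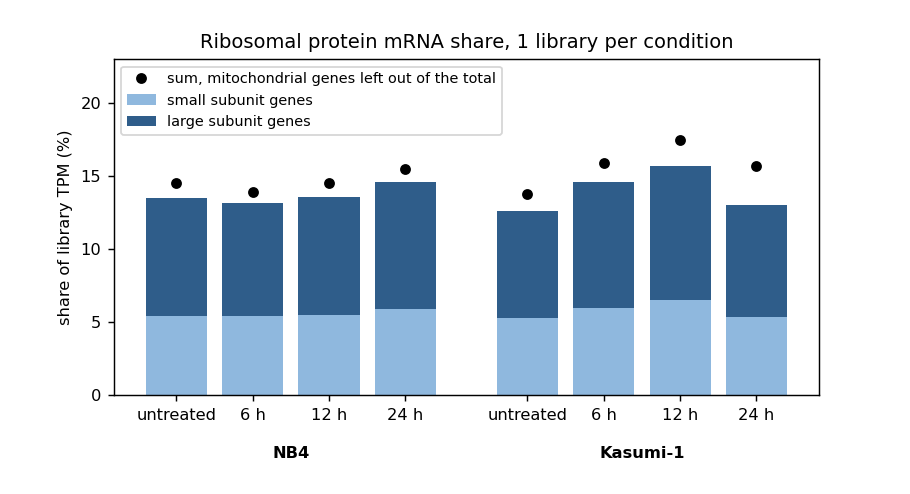
Share of each library's TPM taken by ribosomal protein mRNAs, stacked as small and large subunit genes, for 4 NB4 and 4 Kasumi-1 libraries in time order. Black points give the summed share with mitochondrially encoded genes left out of the total. The highest bar is Kasumi-1 at 12 h (15.7%) and the lowest untreated Kasumi-1 (12.6%).

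The shares of both ribosomal subunits had the same order over time in Kasumi-1, and nearly so in NB4. The large subunit genes took 7.32%, 8.6%, 9.11% and 7.61% of transcripts in untreated, 6 h, 12 h and 24 h Kasumi-1 cells, and the small subunit genes 5.27%, 6.0%, 6.55% and 5.38%. In NB4 the large subunit share was 8.05%, 7.77%, 8.03% and 8.65% and the small subunit share 5.45%, 5.4%, 5.51% and 5.93%. The ratio of the 2 shares stayed between 1.39 and 1.48 in all 8 libraries. The 10 highest members held 26.4% to 29.4% of the sum.

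Gene by gene, the Kasumi-1 shift was broad and small. Of the 80 genes, 68 stood higher at 6 h than in untreated Kasumi-1 cells, 72 at 12 h and 47 at 24 h, where 48.2%, 42.7% and 45.5% of all 14650 genes tested were higher. The median difference on the log2(TPM + 1) scale was 0.23, 0.28 and 0.02, against -0.01, -0.08 and -0.04 for all genes. In NB4, 33, 37 and 58 genes stood higher at 6, 12 and 24 h, against 47.2%, 50.6% and 48.2% of all genes, with medians of -0.05, -0.02 and 0.08. Without the mitochondrially encoded RNAs, 27, 37 and 57 genes stood higher in NB4, with 68, 75 and 68 in Kasumi-1, and the count moved most at 24 h in Kasumi-1.

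**Figure D2:**
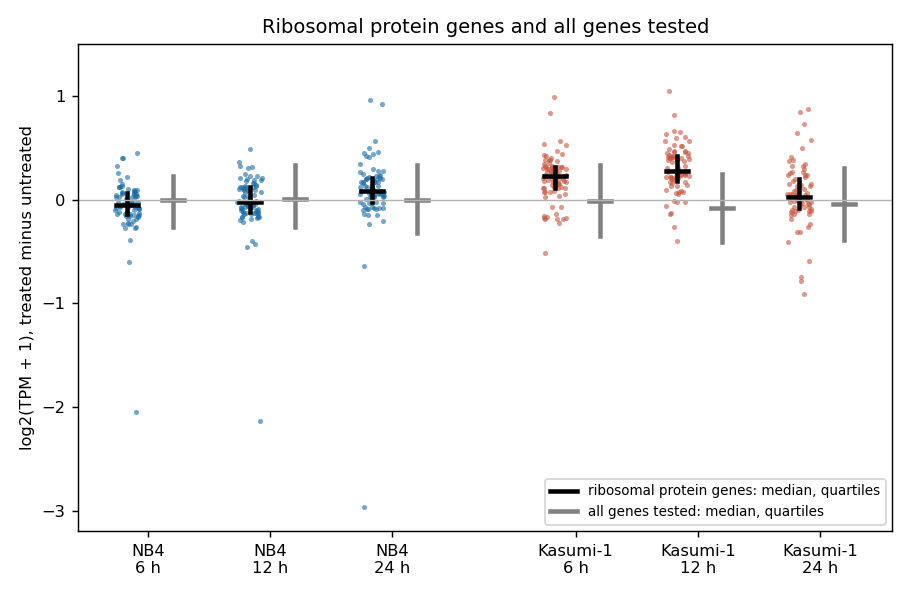
Difference from that line's untreated library on the log2(TPM + 1) scale, 1 point per ribosomal protein gene (NB4 blue, Kasumi-1 red), with the median and quartiles of these genes in black and of all 14650 genes tested in grey. The black medians at 6 and 12 h in Kasumi-1 lie at 0.23 and 0.28, and the low points in NB4 are RPS18.

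The spread within the family was narrow beside that of all genes, which were not matched to it in level. The median member had 1333 TPM or more in every library, while all genes averaging 1 TPM or more were tested. A difference of at least 0.5 upward on that scale was reached by 0, 0 and 4 genes at 6, 12 and 24 h in NB4, where 11.3%, 16.5% and 17.6% of all genes reached it, and by 5, 12 and 6 genes in Kasumi-1, where 17.6%, 14% and 16.2% did. Downward it was reached by 2, 1 and 2 genes in NB4 (11.6%, 12.3% and 14.4% of all genes) and by 1, 0 and 4 in Kasumi-1 (15.8%, 18.9% and 19.1%). A difference of 1 or more was found in NB4 for RPS18 alone, which was lower at every time, and in Kasumi-1 for RPL28 alone, which was higher at 12 h. Of all genes, 3.06%, 5.6% and 6.51% were higher by that much at 6, 12 and 24 h in NB4, with 6.44%, 4.85% and 5.11% in Kasumi-1, and 2.27%, 2.37% and 2.88% were lower in NB4, with 2.99%, 3.52% and 3.88% in Kasumi-1. The median gene varied 1.18-fold between its highest and lowest NB4 library and 1.33-fold in Kasumi-1, and 4 genes in NB4 against 16 in Kasumi-1 varied by 1.5-fold or more.

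The direction was steady over time for many genes of Kasumi-1. There, 43 of 80 (53.8%) were higher than untreated at all 3 times, against 28.2% of all genes, and 3 (RPL35A, RPL39L and RPS26) were lower at all 3, against 36%. In NB4, 26 (32.5%) were higher at all 3 times, against 30.6%, and 16 (20%) lower, against 32.2%. In both lines and at every time, 16 genes (20%) were higher, against 12.9%, among them RPL4, RPL11, RPL28, RPS19 and RPS27, and 0 were lower, against 16.9%. The 3 times of a line share 1 untreated library, so these counts are not independent repeats. Between the lines, whose untreated libraries differ, the changes of the 80 genes had a Pearson correlation of -0.05 at 6 h, 0.02 at 12 h and 0.21 at 24 h, and without RPS18 it was -0.14, 0.13 and 0.42, a description over genes that share each library.

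**Figure D3:**
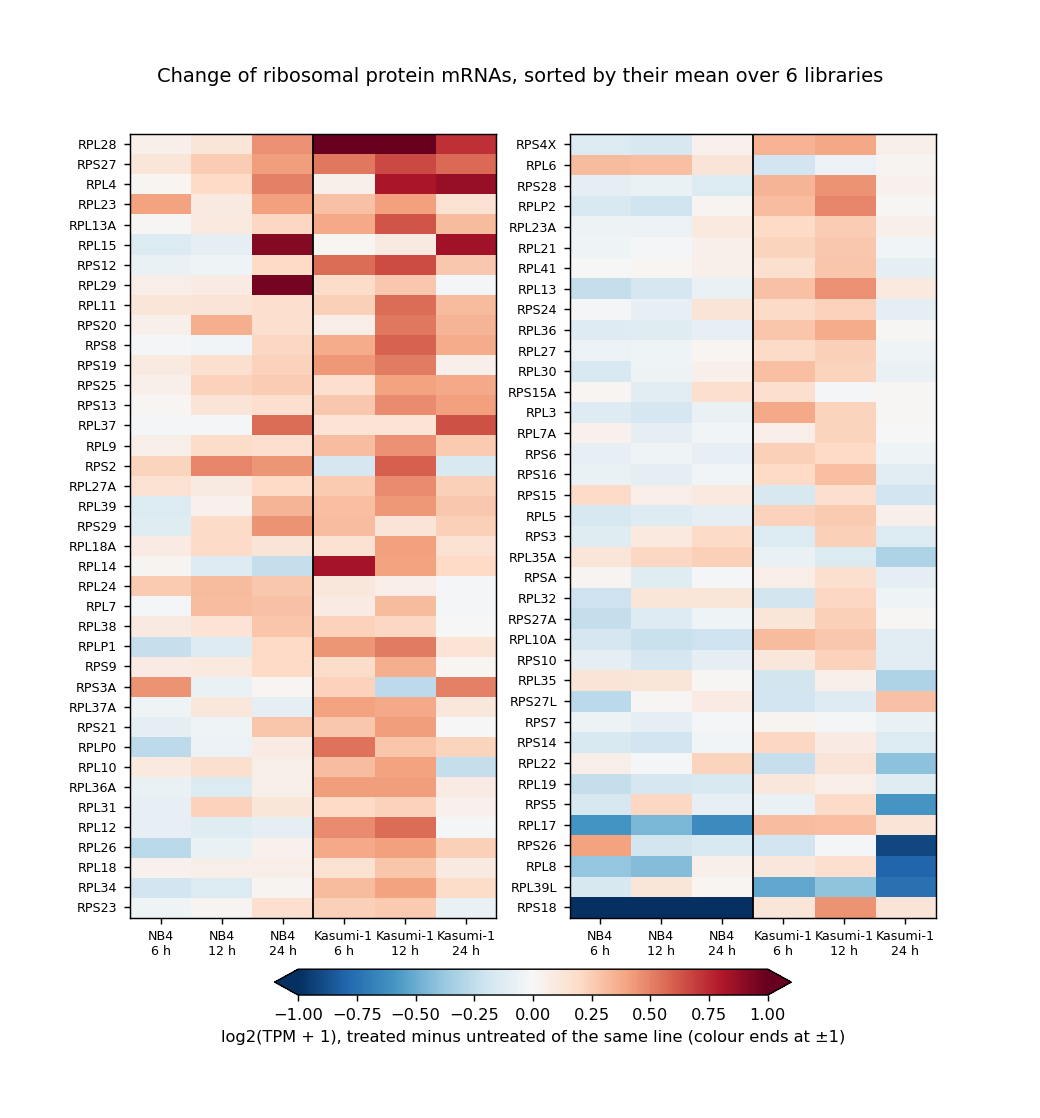
A total of 77 of the 80 genes (rows, in 2 columns, sorted by mean) in the 6 treated libraries, NB4 left of Kasumi-1, coloured by its difference from that line's untreated library in log2(TPM + 1), with colour ending at 1 in either direction. The left panel is mostly red in Kasumi-1 at 6 and 12 h, RPL28 heads the list, and RPS18 closes it with values of -2.05 to -2.96 in NB4.

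The tests were made with limma across all 14650 genes, with Benjamini-Hochberg adjustment and a two-sided threshold of 0.05. With 1 library per condition, the spread came from how alike the lines and times were, so p-values say nothing of repeat cultures. In the model of line and time, which asks for a response shared by both lines, limma called 0 of the 80 genes higher and 0 lower, where 0.0273% and 0% of all genes were called. Unadjusted p-values under 0.05 gave 2 higher and 0 lower, against 9.3% and 11.1% of all genes. The 2 were RPL28 (0.57, SE 0.21, adjusted p 0.206 in limma, higher in 6 of 6 treated libraries) and RPS27 (0.43, SE 0.16, adjusted p 0.211 in limma, higher in 6 of 6). Without untreated NB4 their values were 0.92 and 0.59, and without untreated Kasumi-1 0.21 and 0.27, since the fit then rests on the other line alone.

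For Kasumi-1 alone, with its 3 times taken as repeats, limma called 0 genes higher and 0 lower, where 0.205% and 0.109% of all genes were called, and at an unadjusted p under 0.05 it had 2 higher and 1 lower, against 8.18% and 12%. For NB4 alone it called 0 higher and 1 lower, against 0.621% and 0.177%, and 0 and 2 unadjusted, against 8.3% and 6.86%. The gene called lower in NB4 was RPS18. For the difference between the responses of the lines, limma called 0 and 0, against 0.0887% and 0.041%, with 0 and 3 unadjusted, against 6.37% and 4.22%. No gene of the broad Kasumi-1 shift was thus called on its own.

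RPL28, a large subunit protein found in animals and plants and not in budding yeast, showed the largest difference in treated Kasumi-1 cells. Its levels were 278, 289, 302 and 382 TPM in untreated, 6 h, 12 h and 24 h NB4 cells, while Kasumi-1 had 281, 559, 581 and 466 TPM. Every treated library was above the untreated one of its line, and the untreated lines were nearly equal. The mean difference in NB4 was 0.21 (SE 0.21, adjusted p 0.714 in limma), and in Kasumi-1 it was 0.92 (SE 0.21, adjusted p 0.0893 in limma). The response difference was -0.71 (SE 0.30, adjusted p 0.464 in limma). The gene overlaps UBE2S, an E2 ubiquitin-conjugating enzyme gene on the opposite strand, which had 432, 704, 877 and 627 TPM in NB4, beside 401, 490, 595 and 412 TPM in Kasumi-1. Strand-specific counting is not given in the sources used here, so reads of the 2 genes may be mixed, and what this adds was not tested.

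RPS27 and RPL4 followed it in Kasumi-1. RPS27, a zinc-finger protein of the small subunit, had 2250, 2453, 2675 and 3018 TPM in untreated, 6 h, 12 h and 24 h NB4 cells, while Kasumi-1 had 2278, 3299, 3612 and 3375 TPM. All treated libraries lay above the untreated ones, by a mean of 0.59 in Kasumi-1 (SE 0.20, adjusted p 0.159 in limma). RPL4, whose long extension reaches the exit tunnel of the large subunit, had 1898, 1920, 2186 and 2689 TPM in NB4, beside 1389, 1436, 2459 and 2539 TPM in Kasumi-1. Its level at 6 h was near the untreated one in both lines, and higher values were seen only from 12 h.

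A few genes stood apart at 24 h alone, and 2 of them, RPL15 and RPL37, are named after their values were seen. RPL15, a large subunit protein, had 587, 533, 548 and 1112 TPM in NB4, beside 718, 730, 763 and 1284 TPM in Kasumi-1, so that in both lines the 24 h library was far above the other 3. RPL37, another large subunit protein, had 525, 518, 522 and 773 TPM in NB4, while Kasumi-1 had 256, 282, 282 and 399 TPM, again with the 24 h value highest. RPL29 had 1513, 1591, 1598 and 2950 TPM in NB4, beside 1723, 1956, 2076 and 1713 TPM in Kasumi-1, so the 24 h value was high in NB4 only in these libraries. The start window of RPL15 holds no TOP run, that of RPL29 does, and none was matched for RPL37. Each of the 24 h values is a single library.

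**Figure D4:**
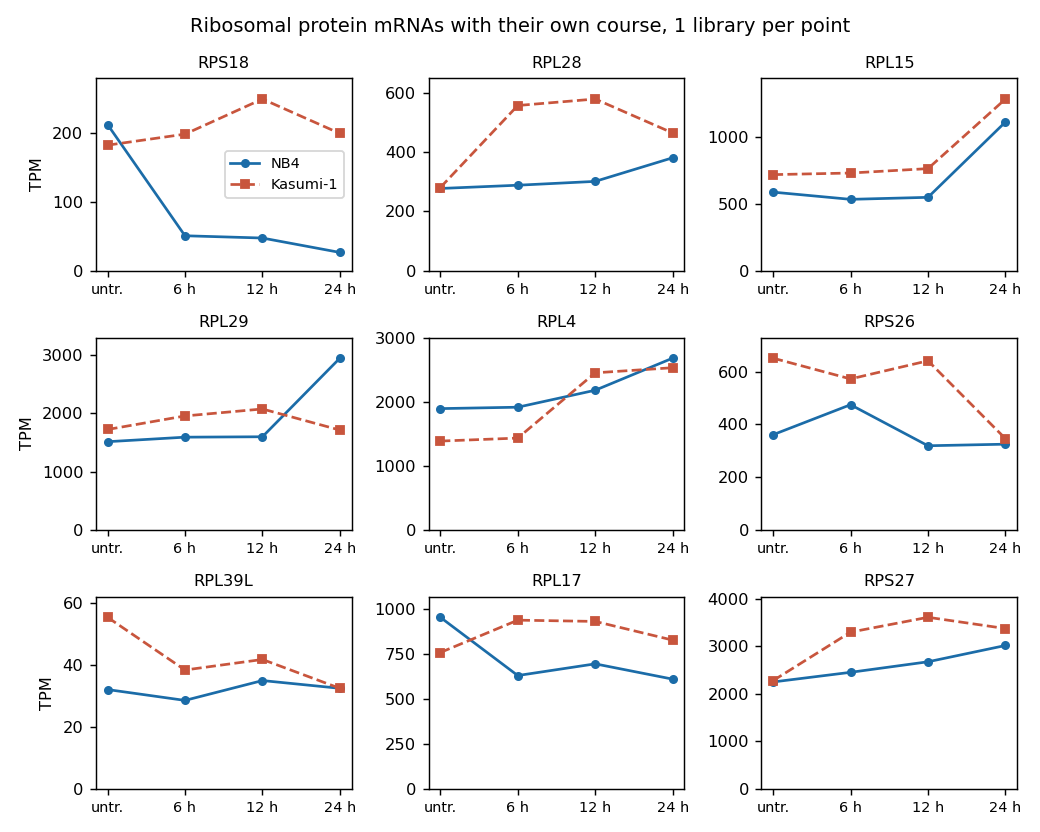
TPM of 9 genes in untreated, 6 h, 12 h and 24 h libraries of NB4 (blue circles) and Kasumi-1 (red squares), 1 library per point, each panel with its own axis from 0. At 24 h RPL15 reaches 1112 TPM in NB4, beside 1284 TPM in Kasumi-1, and RPS18 lies at 26.3 to 50.5 TPM in treated NB4 against 212 TPM untreated.

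Farthest below the family in Kasumi-1 were RPL39L, described with its parent, RPS26 and RPL35A, and RPL8 was low at 24 h. RPS26, a protein at the mRNA exit channel of the small subunit, had 361, 475, 319 and 325 TPM in NB4, beside 652, 573, 642 and 346 TPM in Kasumi-1. The 24 h library of Kasumi-1 was low and came to the NB4 range. RPL8, a large subunit protein near the catalytic centre, had 1697, 1293, 1260 and 1758 TPM in NB4, beside 2997, 3245, 3365 and 1734 TPM in Kasumi-1, again with the Kasumi-1 24 h library low. RPL35A had 871, 947, 1009 and 1027 TPM in NB4, beside 1307, 1247, 1187 and 1053 TPM in Kasumi-1, with each treated library above the untreated one in NB4 and below it in Kasumi-1. The response difference of RPL35A was 0.36 (SE 0.24, adjusted p 0.646 in limma).

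In NB4 the genes farthest above the family were RPS2, RPL29 and RPL23, and the farthest below, besides RPS18 and RPL8, was RPL17. RPS2, a protein at the mRNA entry of the small subunit, had 3509, 4091, 4922 and 4773 TPM in NB4, with every treated library higher, and 4958, 4422, 7497 and 4480 TPM in Kasumi-1, with 1 of 3 higher. RPL23, which can bind MDM2 like RPL5 and RPL11, had 519, 687, 551 and 692 TPM in NB4, beside 586, 715, 779 and 650 TPM in Kasumi-1. Its mean difference in NB4 was 0.30 (SE 0.20, adjusted p 0.522 in limma). RPL24, a late-joining large subunit protein, had 1134, 1361, 1417 and 1371 TPM in NB4, a mean difference of 0.29 (SE 0.16, adjusted p 0.448 in limma), and 992, 1070, 1042 and 975 TPM in Kasumi-1.

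RPL17, a protein at the tunnel exit of the large subunit, had 954, 630, 695 and 610 TPM in NB4, while Kasumi-1 had 758, 938, 931 and 827 TPM. All 3 treated NB4 libraries lay below the untreated one, and all 3 treated Kasumi-1 libraries above it. The mean differences were -0.57 in NB4 (SE 0.17, adjusted p 0.188 in limma) and 0.24 in Kasumi-1, and the response difference was -0.81 (SE 0.24, adjusted p 0.328 in limma). RPL17-C18orf32, a read-through gene on the same strand, had 9.82, 15.7, 19.6 and 13.1 TPM in NB4. In Kasumi-1 it had 7.09, 29.2, 30.5 and 19.7 TPM, a low level beside that of RPL17. SNORD58B, a small nucleolar RNA gene inside RPL17 on the same strand, was higher, with 181, 198, 198 and 161 TPM in NB4. Kasumi-1 had 207, 286, 297 and 275 TPM of it. What these overlaps add to the RPL17 values was not tested.

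RPL14 is given after its values were seen, because its pseudogene varied. The gene had 1565, 1599, 1427 and 1327 TPM in untreated, 6 h, 12 h and 24 h NB4 cells, while Kasumi-1 had 1591, 2831, 2106 and 1826 TPM. RPL14P1, a processed pseudogene, had 76.8, 82.4, 79.4 and 83.1 TPM in NB4, beside 483, 124, 105 and 94.2 TPM in Kasumi-1, so it was high in untreated Kasumi-1 alone. The gene and its pseudogenes together had 2074, 2954, 2210 and 1920 TPM in Kasumi-1. Their differences from untreated were 0.51, 0.09 and -0.11 on the log2(TPM + 1) scale, against 0.83, 0.4 and 0.2 for RPL14 alone.

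RPS18, a small subunit protein at the head of the subunit, is the member on chromosome 6 between 28 and 34 Mb (hg19, chromosome 6, 33239787 to 33244287, plus strand) and is given apart. It had 212, 50.5, 47.2 and 26.3 TPM in untreated, 6 h, 12 h and 24 h NB4 cells and 182, 198, 249 and 199 TPM in Kasumi-1. The treated NB4 libraries were all far below every other library, and the untreated lines were close. In NB4 RPS18 fell by 2.38 on the log2(TPM + 1) scale (SE 0.34, adjusted p 0.0318 in limma, lower in 3 of 3 treated libraries), and in Kasumi-1 the mean difference was 0.23. The difference between the responses was -2.61 (SE 0.49, adjusted p 0.146 in limma). The NB4 call was lost without the filter on low values (adjusted p 0.0727 in limma), without NB4 at 12 h (0.0926) and without Kasumi-1 at 6, 12 or 24 h (0.0581, 0.0975 and 0.0606).

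The RPS18 level was low for the family, the third lowest of the 80 with a mean of 146 TPM, and a pseudogene of it was listed far higher. RPS18P12, a processed pseudogene on chromosome 17, had 1298, 1038, 1026 and 1322 TPM in NB4, while Kasumi-1 had 1139, 1704, 1674 and 1165 TPM, several times the level of the gene. Its NB4 values at 24 h and untreated were alike, and pseudogenes held 89.9% of the sum of the gene and its pseudogenes. That sum was 1514, 1092, 1077 and 1352 TPM in NB4, beside 1326, 1907, 1927 and 1368 TPM in Kasumi-1. Its differences from untreated in NB4 were -0.47, -0.49 and -0.16, against -2.05, -2.14 and -2.96 for RPS18 alone. The deposited coverage of RPS18 was 277, 77.7, 59.3 and 43.0 in NB4, in the same order as the TPM, while Kasumi-1 had 207, 280, 338 and 215. How reads were shared between gene and pseudogene was not tested.

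The other genes of the chromosome 6 stretch had medians near 0. The stretch lists 415 genes, of which 240 were at 0 in every library and 61 others were tested. The median difference of those 61 was -0.11, 0 and 0.08 at 6, 12 and 24 h in NB4, with 0.02, -0.06 and 0.09 in Kasumi-1. A level lower by log2 1 or more was found for 5, 3 and 3 of them in NB4, where 2.27%, 2.37% and 2.88% of all genes were, and for 3, 3 and 3 in Kasumi-1, where 2.99%, 3.52% and 3.88% were. Leaving RPS18 out did not alter the NB4 and Kasumi-1 share at the precision given above, except at 12 h in Kasumi-1 (15.6% in place of 15.7%).

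Most calls in the family were between the lines. In the model of line and time, limma called 13 of 80 genes higher in NB4 and 15 lower, where 27.5% and 27.8% of all genes were called. In all, 28 of 80 (35.0%) were called, against 55.4% of all genes, and the median size of the difference was 0.28 on the log2 scale, against 0.56. At an unadjusted p under 0.05 there were 15 higher and 17 lower, against 30.4% and 30.6% of all genes. A 2-fold difference was reached by 6 of them (7.5%) against 28.1% of all genes. Here too, all genes were not matched to the family in level. With mitochondrially encoded genes left out of the total the calls were 9 higher and 23 lower, and with libraries centred on the median of the other genes they were 14 and 8, so the balance of higher and lower calls moved with the scaling. The calls over all genes moved too, with 4036 higher and 4078 lower in the main analysis, 3572 and 4451 without mitochondrially encoded genes and 4355 and 3849 after centring. With 1 library left out in turn, 7 to 11 were called higher and 3 to 13 lower, the fewest without NB4 or Kasumi-1 at 6 h (higher) and at 12 h (lower). Over all genes, 3031 were then called higher and 3413 lower without NB4 at 12 h, for example. Leaving out either line's library of a time gives the same line estimate, so these runs are not independent checks.

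RPS28, a small subunit protein at the head, had the largest line difference. It had 1330, 1251, 1270 and 1207 TPM in untreated, 6 h, 12 h and 24 h NB4 cells and 211, 268, 288 and 217 TPM in Kasumi-1, and the lines did not overlap. The difference was 2.37 (SE 0.13, adjusted p 1.36e-05 in limma). Its pseudogenes added nothing at the precision given. NDUFA7, a complex I gene that overlaps it on the opposite strand, had 180, 182, 153 and 133 TPM in NB4, while Kasumi-1 had 77.6, 79.3, 62.7 and 70.6 TPM.

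RPL18 and RPS6 came next. RPL18, a large subunit protein, had 3112, 3202, 3242 and 3271 TPM in NB4, beside 920, 1023, 1114 and 977 TPM in Kasumi-1, with no overlap, and the difference was 1.67 (SE 0.12, adjusted p 4.81e-05 in limma). SPHK2, a sphingosine kinase gene on the opposite strand, had 91.4, 119, 107 and 76.2 TPM in NB4, while Kasumi-1 had 19.8, 14.6, 20.6 and 17.2 TPM. RPS6, the small subunit protein that the S6 kinases phosphorylate downstream of mTOR, had 4308, 4073, 4188 and 4086 TPM in NB4, beside 1228, 1451, 1412 and 1197 TPM in Kasumi-1. Again the lines did not overlap, and the difference was 1.66 (SE 0.13, adjusted p 7.26e-05 in limma).

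RPL37A and RPL21 were the other 2 of the 5 largest in that direction. RPL37A, a zinc-finger protein of the large subunit, had 501, 487, 541 and 470 TPM in NB4, while Kasumi-1 had 199, 263, 260 and 215 TPM (difference 1.10, SE 0.11, adjusted p 0.000259 in limma). RPL21, a large subunit protein, had 2324, 2258, 2286 and 2401 TPM in NB4, beside 1023, 1190, 1235 and 1001 TPM in Kasumi-1 (difference 1.06, SE 0.13, adjusted p 0.000531 in limma). For both, every NB4 library was above every Kasumi-1 library. RPL37, RPS3, RPL36A, RPS27L, RPL24, RPL27A and RPL35 were among the rest, with differences of 0.37 to 0.94.

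**Figure D5:**
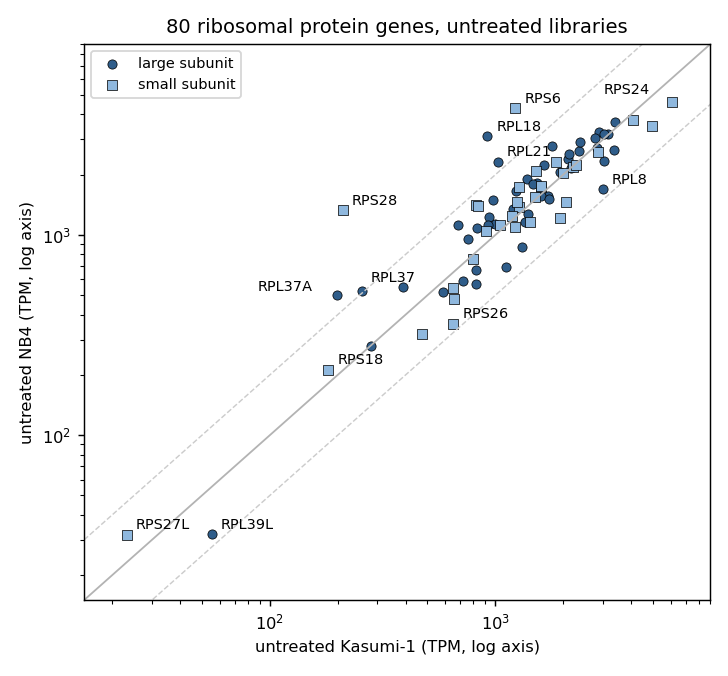
TPM of 80 ribosomal protein genes in untreated NB4 (vertical, log axis) against untreated Kasumi-1 (horizontal, log axis), large subunit as dark circles and small subunit as light squares. The solid line marks equal levels and the dashed lines 2-fold differences. RPS28 (1330 against 211 TPM), RPL18 (3112 against 920) and RPS6 (4308 against 1228) lie farthest above the line.

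Lower in NB4, after RPS18, were RPL8, RPS19, RPS3A and RPS16. The RPS18 line difference of -1.75 (SE 0.46, adjusted p 0.016 in limma) rests on the treated libraries, while untreated NB4 and Kasumi-1 had 212 and 182 TPM, and the call was lost without NB4 or Kasumi-1 at 12 or 24 h. RPS19, the small subunit protein most often mutated in Diamond-Blackfan anaemia, had 319, 339, 356 and 375 TPM in NB4, while Kasumi-1 had 473, 639, 679 and 491 TPM, with no overlap (difference -0.70, SE 0.13, adjusted p 0.00398 in limma). RPS3A had 1220, 1663, 1161 and 1237 TPM in NB4, beside 1946, 2288, 1622 and 2760 TPM in Kasumi-1, and the highest NB4 value lay above the lowest of Kasumi-1 (difference -0.69, SE 0.16, adjusted p 0.00861 in limma). RPS16 had 1470, 1403, 1375 and 1442 TPM in NB4, while Kasumi-1 had 2062, 2365, 2540 and 1904 TPM, with no overlap (difference -0.63, SE 0.14, adjusted p 0.00738 in limma). The difference of RPL8 was -0.89 (SE 0.25, adjusted p 0.0203 in limma), with overlap at 24 h, and the call was lost without either line at 6 or 12 h (adjusted p 0.085 to 0.0896 in limma). RPS16 reached an adjusted p of 0.05 in limma without NB4 at 6 h. The other 10 lay between -0.55 and -0.36.

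Genes near several of these members differed mostly in the same direction. The median line difference of all 14650 genes tested was 0.0, with quartiles of -0.59 and 0.54. Within 1 Mb on either side, the median line difference of the other tested genes was 0.84 around RPS28 (37 genes, 29 higher in NB4), 0.34 around RPL18 (50 genes, 30 higher), 0.99 around RPS6 (11 genes, 8 higher), 0.66 around RPL37A (5 of 5 higher) and 0.89 around RPL21 (12 genes, 11 higher). It was -0.75 around RPL8 (50 genes, 7 higher), -0.42 around RPS19 (28 genes, 6 higher), -0.52 around RPS16 (38 genes, 8 higher) and -0.15 around RPS3A (4 genes, 2 higher). Around RPS18 it was 0.01 (19 genes, 10 higher). The split of neighbours into higher and lower was nearest to even around RPL18, RPS3A and RPS18. The part of gene copy number in these differences was not tested.

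Named pseudogenes were numerous but mostly faint. The tables list 800 of them for 74 parents, 85 averaged at least 1 TPM, and 23 reached 100 TPM in some library. For 62 of the 74 parents they held under 10% of the summed level. RPS2P5 had 1626, 1622, 1843 and 1663 TPM in NB4, beside 112, 120, 126 and 103 TPM in Kasumi-1, while its parent RPS2 was not called between the lines. RPL9, a large subunit protein that was lower in NB4 (-0.38, adjusted p 0.0314 in limma), had pseudogenes with 69.3% of the joint level. RPL9P8 had 1948, 1977, 2169 and 2036 TPM in NB4, while Kasumi-1 had 739, 836, 930 and 860 TPM. The joint level of RPL9 and its pseudogenes was 5465 TPM in untreated NB4 against 3114 TPM in untreated Kasumi-1, the opposite direction to RPL9 alone. With all pseudogenes added, the family's share was 14.7%, 14.4%, 14.8% and 15.8% in NB4, while Kasumi-1 had 13.3%, 15.5%, 16.6% and 13.8%.

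The 2 highest members were RPS24 and RPS2, at means of 5567 and 4831 TPM. RPS24, a small subunit protein, had 4638, 4588, 4386 and 5084 TPM in NB4, beside 6068, 6935, 7113 and 5720 TPM in Kasumi-1. The order of these 2 was not the same in every library. The median member had 1501, 1407, 1462 and 1540 TPM in NB4, beside 1333, 1501, 1612 and 1472 TPM in Kasumi-1.

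The lowest expressed members were the tissue-restricted or duplicated paralogues. RPL10L, a testis-restricted copy of RPL10, was listed at 0 in all 8 libraries. RPL10 itself had 1571, 1689, 1752 and 1642 TPM in NB4, while Kasumi-1 had 1719, 2135, 2274 and 1457 TPM. RPL3L, the striated muscle paralogue of RPL3, reached at most 0.429 TPM, while RPL3 had 2720, 2483, 2425 and 2600 TPM in NB4, beside 2821, 3670, 3279 and 2840 TPM in Kasumi-1. RPS10L reached at most 0.677 TPM. These 3 were below the filter and were not tested.

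RPL39L and RPS27L were expressed at a low level. RPL39L, a paralogue of RPL39 enriched in testis and in some tumours, had 32.0, 28.5, 34.9 and 32.4 TPM in NB4, while Kasumi-1 had 55.3, 38.3, 41.7 and 32.4 TPM, with each treated Kasumi-1 library below the untreated one. Its mean difference in Kasumi-1 was -0.56 (SE 0.20, adjusted p 0.192 in limma), and the response difference was 0.55 (SE 0.29, adjusted p 0.553 in limma). RPL39 itself had 2533, 2303, 2601 and 3209 TPM in NB4, beside 2120, 2603, 2858 and 2548 TPM in Kasumi-1, so the paralogue was a small fraction of it throughout. RPS27L, a paralogue of RPS27, had 31.9, 26.2, 32.1 and 33.9 TPM in NB4, while Kasumi-1 had 23.2, 20.1, 21.0 and 28.5 TPM. It was called higher in NB4 (0.41, SE 0.12, adjusted p 0.0267 in limma) and was highest at 24 h in both lines.

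The 5S RNP proteins RPL5 and RPL11 did not share a course in NB4. RPL5 had 2613, 2344, 2396 and 2430 TPM in NB4, with each treated library below the untreated one, and 2360, 2775, 2817 and 2444 TPM in Kasumi-1, with each above. RPL11 had 2353, 2554, 2574 and 2639 TPM in NB4, beside 3045, 3596, 4503 and 3791 TPM in Kasumi-1, with every treated library above its untreated one. The shared response was 0.03 for RPL5 (SE 0.16, adjusted p 0.944 in limma) and 0.26 for RPL11 (SE 0.16, adjusted p 0.406 in limma). RPL11 was called lower in NB4 than in Kasumi-1 (-0.55, SE 0.14, adjusted p 0.0141 in limma).

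The P stalk genes RPLP0, RPLP1 and RPLP2, which recruit the elongation factors, had medians farther from 0 than the family at 6 and 12 h. Their median difference was -0.23, -0.13 and 0.08 at 6, 12 and 24 h in NB4, with 0.44, 0.49 and 0.14 in Kasumi-1. RPLP0 had 3067, 2553, 2943 and 3236 TPM in NB4, while Kasumi-1 had 2763, 4030, 3362 and 3210 TPM. The 24 members that host small nucleolar RNA genes in the annotation had medians of -0.02, -0.03 and 0.14 in NB4, with 0.25, 0.35 and 0.08 in Kasumi-1, and the other 56 had -0.07, -0.01 and 0.07 and then 0.20, 0.27 and 0.01. The 42 genes with a TOP run at the annotated start had -0.03, -0.02 and 0.1 in NB4, with 0.24, 0.33 and 0.02 in Kasumi-1. The 21 matched and tested genes without one had -0.12, -0.07 and 0.04 in NB4, with 0.19, 0.24 and 0.03 in Kasumi-1. Their median line differences were -0.02 with a run and -0.15 without. These splits are given as medians, with no test between them.

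Genes of related function were read from lists. Of 7 ribosomal proteins outside the name rule, limma called 3 higher in NB4 than in Kasumi-1 (FAU, which encodes RPS30, GNB2L1, which encodes RACK1, and RPL36AL) and 0 lower, against the 27.5% and 27.8% above, and none in any of the 4 treatment comparisons. Unadjusted, there were 0 higher and 1 lower in the shared response (9.3% and 11.1% of all genes), 1 and 0 in the response difference (6.37% and 4.22%), 0 and 0 in NB4 (8.3% and 6.86%) and 0 and 2 in Kasumi-1 (8.18% and 12%). Their median differences were 0.01, -0.05 and -0.04 at 6, 12 and 24 h in NB4, with -0.22, -0.11 and -0.17 in Kasumi-1, where the genes of the name rule had 0.23, 0.28 and 0.02. GNB2L1 had 1037, 914, 1140 and 1288 TPM in NB4, beside 663, 903, 857 and 832 TPM in Kasumi-1. RPL26L1, the one of lowest p in treatment, had 78.0, 77.7, 61.1 and 62.2 TPM in NB4, while Kasumi-1 had 82.2, 53.4, 44.8 and 39.4 TPM (shared response -0.53, SE 0.17, adjusted p 0.161 in limma).

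Of 18 other TOP genes, limma called 5 higher in NB4 than in Kasumi-1 (EEF1G, EIF2S3, IPO5, NPM1 and VIM) and 4 lower (EEF1D, EEF2, EIF3H and EIF3L), against 27.5% and 27.8% of all genes. In the 4 treatment comparisons it called none. Unadjusted, there were 3 higher and 1 lower in the shared response (9.3% and 11.1% of all genes), 0 and 3 in the response difference (6.37% and 4.22%), 1 and 0 in NB4 (8.3% and 6.86%) and 4 and 0 in Kasumi-1 (8.18% and 12%). Their median differences were -0.03, -0.08 and -0.08 in NB4, with 0.25, 0.20 and 0.13 in Kasumi-1, the side on which the ribosomal protein genes lay at 6 and 12 h. EEF1G, a subunit of the elongation factor complex that delivers tRNA, had 1367, 1758, 2527 and 2708 TPM in NB4, beside 1173, 1467, 1897 and 1676 TPM in Kasumi-1, above untreated in 6 of 6 (0.63, SE 0.16, adjusted p 0.118 in limma). TPT1 had 3117, 3038, 4337 and 3729 TPM in NB4, while Kasumi-1 had 2037, 3355, 3727 and 3399 TPM (0.50, SE 0.19, adjusted p 0.205 in limma).

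Of 20 genes of TOP mRNA and mTOR control, limma called 8 higher in NB4 than in Kasumi-1, among them LARP1, MLST8 and RHEB, and 6 lower, among them MTOR, RPTOR and DEPTOR, against 27.5% and 27.8% of all genes, and none in the treatment comparisons. Unadjusted, the shared response had 1 higher and 3 lower (9.3% and 11.1% of all genes), the response difference 0 and 1 (6.37% and 4.22%), NB4 0 and 3 (8.3% and 6.86%) and Kasumi-1 0 and 2 (8.18% and 12%). LARP1 had 293, 278, 242 and 191 TPM in NB4, beside 201, 187, 155 and 159 TPM in Kasumi-1, below untreated in 6 of 6 (-0.30, SE 0.13, adjusted p 0.251 in limma). DEPTOR, an mTOR inhibitor and the gene of lowest p, had 2.61, 0.673, 0.551 and 0.697 TPM in NB4, while Kasumi-1 had 105, 26, 35.9 and 55.6 TPM (shared response -1.31, SE 0.24, adjusted p 0.0815 in limma). AKT1S1, which encodes the mTOR substrate PRAS40, had 31.0, 50.2, 47.4 and 35.4 TPM in NB4, beside 29.0, 35.2, 54.0 and 36.9 TPM in Kasumi-1.

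Of 10 ribosomal protein chaperones and genes of the 5S RNP and MDM2 pathway, limma called 6 higher in NB4 than in Kasumi-1 (among them GRWD1, TSR2, PDCD2, BCCIP and LTV1) and 0 lower, against 27.5% and 27.8% of all genes, and none in the treatment comparisons. Unadjusted, there were 0 higher and 6 lower in Kasumi-1 (8.18% and 12% of all genes), 0 and 3 in the shared response (9.3% and 11.1%), 2 and 0 in the response difference (6.37% and 4.22%) and 0 and 1 in NB4 (8.3% and 6.86%). Their median difference in NB4 was -0.02, -0.09 and -0.22, where the ribosomal protein genes had -0.05, -0.02 and 0.08. In Kasumi-1 it was -0.44, -0.51 and -0.43, where the ribosomal protein genes had 0.23, 0.28 and 0.02. PDCD2L, which escorts RPS2, had 44.3, 26.3, 18.0 and 18.5 TPM in NB4, while Kasumi-1 had 40.0, 24.7, 20.6 and 17.2 TPM (shared response -0.99, SE 0.14, adjusted p 0.0742 in limma). BCCIP, a partner of RPL23, had 219, 216, 182 and 189 TPM in NB4, beside 166, 99.3, 102 and 90.4 TPM in Kasumi-1. MDM2 had 23.3, 19.3, 29.6 and 11.9 TPM in NB4, while Kasumi-1 had 9.48, 24.2, 9.74 and 11.9 TPM, in no steady direction.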

How the data were processed

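Total RNA of the 8 cultures was sequenced after TruSeq library preparation, per the labels' protocols. HISAT2 alignment to hg19 and StringTie quantification are named in the submitters' processing notes, without versions. The deposited TPM values are scaled for length and sum to 1000000 in each library, the deposited FPKM values are scaled for length and depth, and the deposited coverage is a mean read coverage, per the file headers. The number of reads is unknown, and the ratio of coverage to FPKM was the one measure looked at for depth. Samples were grouped by the line and time in their titles.

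TPM was summed by gene name. Genes averaging 1 TPM or more, 14650 in all, were tested on log2(TPM + 1), which understates folds of low genes, with eBayes of limma 3.58.1 (R 4.3.3; intensity trend, two-sided, Benjamini-Hochberg adjusted p under 0.05), after a test on simulated data. An additive model of line and time (3 residual degrees of freedom) gave the shared response and the line difference. A model of line by treatment with times as repeats (4) gave each line's response and their difference. Promoters were matched by symbol in RefSeq (GRCh38.p14), and gene coordinates are the deposited hg19 ones.

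Members and lists were chosen with earlier results of these data known. Genes were named by rule: the chromosome 6 member, restricted paralogues with their parents, up to 5 called members each way per comparison (or the 2 of lowest p), the 3 highest and 3 lowest members, the 3 farthest from the median change each way per line, RPL5 and RPL11, and in lists the called genes or those of lowest p. Other genes are examples chosen after their values were seen. Pseudocount, filter, unit, scaling, the chromosome 6 stretch and single libraries were varied, and the per-library changes rescaled without mitochondrially encoded genes were added after seeing the data. Results of a few genes are not reported here.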

Additional observations from a re-analysis of the deposited data

Results flagged for a closer look

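Genes whose 3 treated libraries all moved one way in NB4 and all the other way in Kasumi-1 are listed here. There were 9 such genes, 8 lower in NB4 and higher in Kasumi-1 (4.92% of all genes) and 1 the reverse (6.7%). RPS18 had the largest mean difference in NB4 (-2.38, against 0.23 in Kasumi-1), followed by RPL17 (-0.57 against 0.24). RPL13 had -0.16 in NB4 and 0.29 in Kasumi-1, RPL3 -0.12 and 0.20, RPL36 -0.11 and 0.22, and RPL5 -0.13 and 0.18. RPS27A, which encodes a ubiquitin fusion, had -0.14 in NB4 and 0.12 in Kasumi-1, and RPS28 had -0.1 and 0.28. RPL35A had 0.19 in NB4 and -0.17 in Kasumi-1. Direction alone picked these genes, and it was not tested. In the test of the difference between the responses, limma called none of the 9, with adjusted p between 0.146 (RPS18) and 0.767 (RPS27A). Each line's 3 differences share 1 untreated library.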

How the results depend on the processing

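RPS28, RPL18, RPS6, RPL37A, RPL21, RPS19 and RPS3A kept their direction and their line call in all 16 alternatives of each. In the line difference, leaving out either line's library of a time gave the same estimate. The library left at that time is then fitted by its own time term. Those runs come in pairs of equal estimates and are not independent checks, for kept and lost calls alike. The members called higher in NB4 than in Kasumi-1 were 13 in the main analysis and 8 with no filter on low values, and 7 to 11 when single libraries were left out (7 without NB4 or Kasumi-1 at 6 h, 8 without Kasumi-1 at 24 h). Those called lower were 15, and 4 with no filter, 23 after rescaling without mitochondrially encoded genes, 8 after centring, and 3 to 13 with a library left out (4 without NB4 at 6 h, 3 without NB4 at 12 h, 5 and 3 without Kasumi-1 at 6 and 12 h). The single NB4 response call, RPS18, went to 0 with no filter and without the chromosome 6 stretch, which removes it, and ranged over 0 to 1 with a library left out. The shared response had 0 lower calls and ranged over 0 to 1. Without the untreated library of one line, its treatment term rests on the other line alone and is no shared value. Without untreated Kasumi-1 it was the NB4 value, and RPS18 was called (-2.38, adjusted p 0.0483 in limma), and without untreated NB4 it was the Kasumi-1 value (0.23). The RPS18 line difference lost its call with no filter and without NB4 or Kasumi-1 at 12 or 24 h (adjusted p 0.0591 to 0.0672 in limma), RPL8 lost it in 5 alternatives and RPS16 in 1. In the additive model a left-out library also leaves fewer residual degrees of freedom. Apart from this and the pairing by time, the cause of the other moves was not tested. Leaving out an untreated library prevents the fits of that line's response and of the response difference, which were not run. No paired analysis was possible because no condition has more than replicate 1, so there are no replicate numbers to pair by. The additive model does set the lines side by side at each time.

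With 1 library per condition, spread between cultures is unknown, and the number of reads is not given.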
